A study of Mus musculus with 4 samples.

Results

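Hydroxysteroid dehydrogenases are enzymes that oxidise hydroxyl groups or reduce keto groups on the steroid skeleton and thereby switch steroid hormones between active and inactive forms. The liver expresses many of them, because it clears androgens, estrogens and glucocorticoids from the blood and regenerates some of them locally. Several enzymes that carry the family's name act mainly on fatty acids or retinoids, and some sit on lipid droplets, the organelles that swell in fatty liver. In rodents part of the family is expressed at different levels in males and females, under the control of the sex-specific pattern of growth hormone release.

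The 10 members described are the genes Hsd3b2, Hsd3b3, Hsd3b5, Hsd11b1, Hsd17b2, Hsd17b4, Hsd17b6, Hsd17b11, Hsd17b12 and Hsd17b13, out of 22180 genes measured. They were found as rows whose platform annotation names exactly 1 gene, and each of the 10 had 1 such row, so no choice between rows was needed. The members were selected on their measured MCD minus ND differences, which were known when the list was drawn up, so the members' own differences are given as a description, without a test.

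RNA came from the livers of wild-type male C57BL/6J mice that were given food lacking methionine and choline (the MCD diet) or a normal diet (ND) for 20 weeks from 6 weeks of age. Choline is needed for the export of lipoproteins from hepatocytes, and the MCD diet is widely used to produce fatty liver with inflammation. Each diet had 2 samples, each on its own Mouse Gene 2.1 ST array, which reads a transcript with oligonucleotides along its length and gives a single value per row. The labels do not say whether an array holds RNA of 1 animal, so errors and p-values measure only the spread between these samples, which may be technical.

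The values are log2 signals, with the base inferred from their range. The array medians were 2.57 and 2.63 in MCD diet livers and 2.63 and 2.65 in ND livers, and the number of arrays limits the precision. Hepatocyte identity was plain on every array: albumin (Alb) had log2 signals of 11.99 and 11.93 in MCD diet livers and 12.04 and 11.96 in ND livers. Of 11 measured hepatocyte markers 0 rose and 2 fell, Serpina1a and Apoa1 (0 to 1 of them with any 1 array left out), and the 11 markers' linear signals summed to 26034 and 26270 on the MCD diet arrays against 27572 and 27242 on the ND arrays. Macrophage and Kupffer cell markers moved more, with 7 of 13 higher (Gpnmb, Clec7a, Trem2, Cd68, Itgax, Lyz2 and Csf1r) and 3 lower. Their summed linear signals were 2843 and 2027 in MCD diet livers against 448 and 442 in ND livers. These sums do not show the falls of Clec4f (-1.66), Timd4 (-0.89) and Cd163 (-2.06). Biliary markers rose in 5 of 6 (2 to 3 with any 1 array left out), with sums of 153 and 162 in MCD diet livers against 50.2 and 43.1 in ND livers. These shifts accompany every difference below, and their part in them was not tested. In whole liver RNA, fewer cells of a type and less RNA per cell cannot be told apart. No true zero exists on this scale, so no marker can be called absent.

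The MCD diet livers had clearly lower signals for Hsd3b5, Hsd3b2, Hsd3b3 and Hsd17b6, moderately lower signals for Hsd17b2, and nearly level signals for the members that act on fatty acids or coat lipid droplets. Across the whole table, limma called 5 of the 10 members lower and 0 higher at an adjusted p under 0.05. Over all 22180 genes 3.62% were called lower, 6.37% higher and 9.98% were called in either direction. Since the members were picked with this contrast known, nothing is read from the comparison of these shares. The members' median log2 difference (MCD diet minus ND) was -0.61, against -0.03 over all genes. The mean was lower in MCD diet livers for 9 of the 10 members, or 8 of the 10 after quantile normalization, under which Hsd17b4 turned to the other side. MCD diet and ND arrays were fully separated for 9 members, 8 of them lower and 1 higher in MCD diet livers. Over all genes the share was 54.2%, with 29.2% lower and 25% higher.

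**Figure D1:**
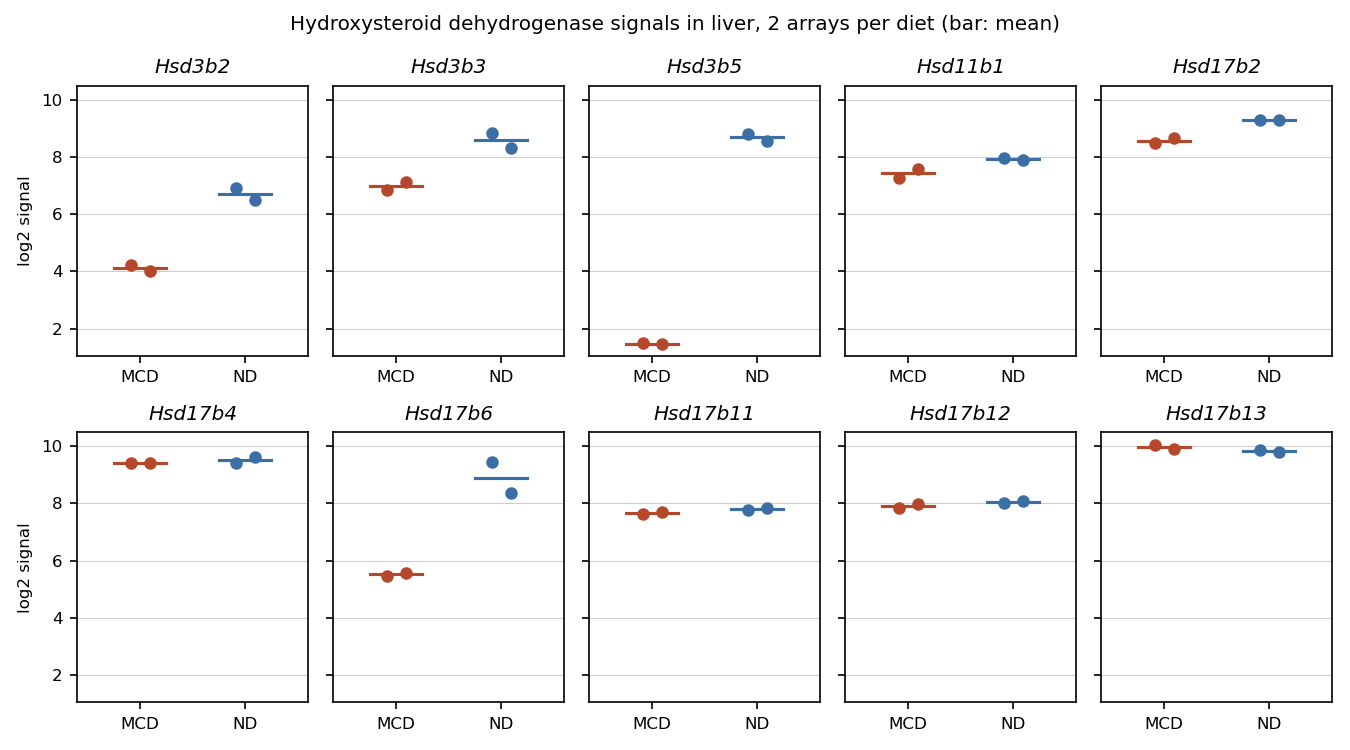
Log2 signal of each of the 10 hydroxysteroid dehydrogenase genes (vertical axis) on the 2 MCD diet arrays (red, left) and the 2 normal diet arrays (blue, right); points are arrays and bars are means. Hsd3b5 lies at 1.49 and 1.48 on the MCD diet arrays and at 8.80 and 8.57 on the normal diet arrays, whereas Hsd17b4, Hsd17b11, Hsd17b12 and Hsd17b13 have means that differ by -0.14 to 0.14 between the diets (Hsd17b4 changes sign under quantile normalization).

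The Hsd3b genes lie side by side on mouse chromosome 3 and encode close copies of each other. The classical enzymes of the group make progesterone and androstenedione from their precursors. Hsd3b5 differs from these in mice: it acts as a reductase that inactivates dihydrotestosterone, and it is known as one of the most male-specific transcripts of mouse liver. Hsd3b5 had log2 signals of 1.49 and 1.48 on the MCD diet arrays, against 8.80 and 8.57 on the ND arrays. Both MCD diet values lay below the median of all rows on their arrays, and both ND values were among high signals, so the diets were far apart. The difference was -7.20 ± 0.13 on the log2 scale (± is the standard error of the difference throughout, n = 2 arrays per diet), or 147-fold lower, and only 1 of the 22180 genes had a lower difference. Because the MCD diet signal was so dim and signal over background was not analysed here, the fold is uncertain in size.

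Hsd3b2 had log2 signals of 4.23 and 4.01 in MCD diet livers and 6.91 and 6.50 in ND livers. The groups lay much farther apart than the arrays of either diet. The difference was -2.58 ± 0.18, or 6.00-fold lower. Hsd3b3 had 6.84 and 7.13 in MCD diet livers and 8.84 and 8.31 in ND livers. Its difference was -1.59 ± 0.21, or 3.0-fold lower, and its groups did not overlap.

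The upstream sequences of Hsd3b5 and Hsd3b3 are printed because these neighbours differed most in the size of their decrease while sharing much of their promoter. In RefSeq (GRCm38.p6), 8 of the 10 members had a promoter window that was compared, taken as the 250 bases before the annotated start. For the 2 members with more than 1 window only the first was aligned, so their other annotated starts were not compared. Among the 28 pairs of these windows, only Hsd3b3 and Hsd3b5 aligned over most of their length, with 151 identical bases over 202 alignment columns (74.8% identity). In the other 27 pairs the best local alignment held at most 61 identical bases. The windows of Hsd3b2 and Hsd3b5 shared only 23 identical bases over 31 columns. The 2 aligned stretches read as follows, 5′ to 3′ on the minus strand that carries both genes, with capitals for runs of 10 or more bases identical in both.
Hsd3b5, chr3:98645583-98645784: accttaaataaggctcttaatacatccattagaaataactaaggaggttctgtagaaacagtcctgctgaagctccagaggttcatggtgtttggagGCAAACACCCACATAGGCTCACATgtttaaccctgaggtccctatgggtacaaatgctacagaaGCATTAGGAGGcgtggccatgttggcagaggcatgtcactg
Hsd3b3, chr3:98763129-98763327: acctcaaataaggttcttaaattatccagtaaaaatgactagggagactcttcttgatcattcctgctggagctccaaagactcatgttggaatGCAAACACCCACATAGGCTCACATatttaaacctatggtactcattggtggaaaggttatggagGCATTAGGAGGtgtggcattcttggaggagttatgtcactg
The longest common run has 24 bases. The Hsd3b5 stretch ends 49 bases before its annotated start, and the Hsd3b3 stretch ends at the base before its own.

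The windows were also searched on both strands for motifs of factors linked to sex-biased and steroid-controlled liver genes. These were TTCNNNGAA (STAT5 type, held by 7.02% of 32851 promoter windows of that length), TTGCGCAA (C/EBP, 0.164%), the HNF4-type direct repeat (0.033%) and the palindromic glucocorticoid receptor element (0.009%). None of the 8 members' windows held any of these 4, which says only that these letters do not occur in the stretch searched.

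The decrease within the cluster was uneven. Next to the members, Hsd3b6 and Hsd3b1, close copies that are known from steroidogenic tissues such as the adrenal gland and gonads, had dim signals on every array. Hsd3b6 had 1.51 and 1.37 in MCD diet livers and 1.38 and 1.45 in ND livers, a difference of 0.02 ± 0.12 (limma adjusted p = 0.951), which turned to -0.05 with each array centred on its median. Hsd3b1 differed by -0.16 ± 0.16 (limma adjusted p = 0.617). Of the 14 nearest measured protein-coding genes around Hsd3b5 that are not members, limma called 1 lower and 0 higher. That was the predicted gene Gm4450 (-1.22 ± 0.20, limma adjusted p = 0.0181). Several of the others, Hsd3b6, Hsd3b1, Adam30 and Tbx15 included, had ND signals below the array medians, where a fall could hardly show. A further 2 rows name Hsd3b5 together with 2 other genes. They hold identical values, 3.45 and 3.38 in MCD diet livers and 5.60 and 5.60 in ND livers, a difference of -2.18. Array oligonucleotides for one copy can catch transcripts of another, so each Hsd3b value may hold signal of its relatives.

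**Figure D2:**
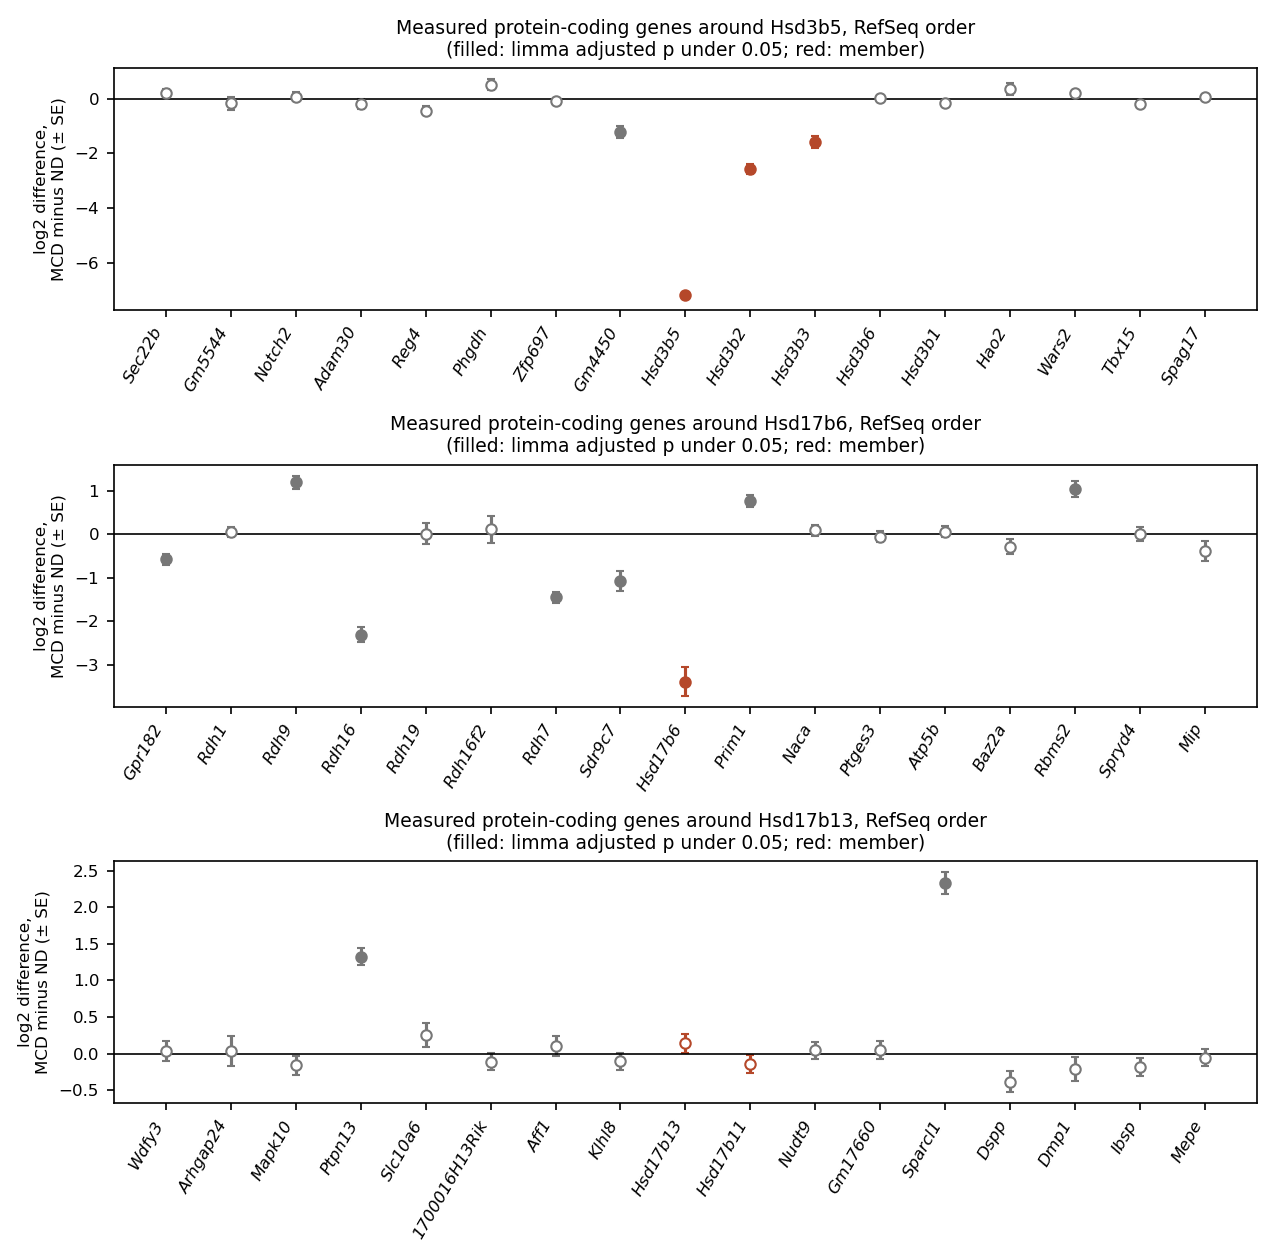
Log2 difference (MCD diet minus normal diet, ± SE, vertical axis) of the measured protein-coding genes around Hsd3b5, Hsd17b6 and Hsd17b13 in the order of the RefSeq annotation (horizontal axis, up to 8 on each side, not to scale). Red marks members, grey other genes, and filled points passed limma's adjusted p of 0.05; around Hsd17b6 the retinol dehydrogenases Rdh16 (-2.30) and Rdh7 (-1.45) were lower and Rdh9 (1.20) was higher, while Hsd17b13 (0.14) and Hsd17b11 (-0.14) were not called.

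Over the 4 arrays, with each gene centred on its own mean, the gene with a known symbol whose profile lay nearest to that of Hsd3b5 was the organic anion transporter Slco1a1, at a root mean square distance of 0.18 on the log2 scale. Slco1a1 had 2.54 and 2.32 in MCD diet livers and 9.35 and 9.41 in ND livers. The next were the carboxylesterase Ces3b (0.44) and the pseudogene Serpina4-ps1 (0.49). With 4 arrays in 2 diets, such a distance mostly measures the size of the difference between the diets.

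Among the enzymes of sex steroids, Hsd17b6 acts on androgen metabolites and also accepts retinol. Hsd17b6 had log2 signals of 5.47 and 5.57 in MCD diet livers, against 9.43 and 8.37 in ND livers. The ND arrays differed by 1.06 from each other, a gap reached by 0.446% of all genes, and even the lower of them stood well above both MCD diet arrays. The difference was -3.38 ± 0.33, or 10.4-fold lower, and it ranged between -3.91 and -2.85 when each array was left out in turn. Hsd17b2, which inactivates testosterone and estradiol by oxidation, had 8.47 and 8.64 in MCD diet livers and 9.28 and 9.29 in ND livers. The ND arrays were nearly identical and the groups did not overlap. The difference was -0.73 ± 0.13, or 1.66-fold lower. This member's call was lost without MCD replicate 1 and without either ND array, with differences between -0.73 and -0.64 there.

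Hsd17b6 lies on chromosome 10 at the end of a row of related retinol dehydrogenase genes, and these neighbours went different ways. Sdr9c7, the measured gene next to it, fell by 1.07 ± 0.23 (limma adjusted p = 0.0395). Rdh7 fell by 1.45 ± 0.13 (adjusted p = 0.00229) and Rdh16 fell by 2.30 ± 0.17 (adjusted p = 0.00143), both being enzymes that oxidise retinol and some steroids. Rdh9, in the same row, rose by 1.20 ± 0.16 (adjusted p = 0.00777), and Rdh16f2 differed by 0.12 ± 0.31. Of the 16 nearest measured genes that are not members, 4 fell (these 3 and Gpr182) and 3 rose (Rdh9, Prim1 and Rbms2) in limma. The Rdh genes have close copies too, so part of their signals may be shared.

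Hsd11b1 regenerates active corticosterone from its inactive keto form inside hepatocytes, using NADPH that H6pd supplies in the endoplasmic reticulum. Hsd11b1 had log2 signals of 7.27 and 7.59 in MCD diet livers and 7.97 and 7.89 in ND livers. The groups did not overlap, but the MCD diet arrays were 0.31 apart. The difference was -0.50 ± 0.15, or 1.41-fold lower, and the gene was not called. H6pd had 7.57 and 7.47 in MCD diet livers and 7.59 and 7.71 in ND livers, a difference of -0.13 ± 0.12 (limma adjusted p = 0.606). The glucocorticoid receptor gene Nr3c1 differed by -0.38 ± 0.17 (adjusted p = 0.248). Hsd11b2, the enzyme that inactivates corticosterone in kidney and other mineralocorticoid target tissues, had dim signals of 2.82 and 2.89 in MCD diet livers and 2.89 and 3.01 in ND livers.

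The members that act on fatty acids were almost level. Hsd17b4, the peroxisomal bifunctional protein that carries out the middle steps in the breakdown of very long chain and branched fatty acids and of bile acid precursors, had 9.40 and 9.40 in MCD diet livers and 9.40 and 9.60 in ND livers. Its groups overlapped, the only such case among the members. The difference was -0.10 ± 0.13, and it became 0.08 under quantile normalization. Hsd17b12, the ketoacyl reductase of fatty acid elongation, had 7.84 and 7.96 in MCD diet livers and 7.995 and 8.09 in ND livers. The groups were separated by less than the gap between arrays of the same diet, and the difference was -0.14 ± 0.12. 

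Hsd17b11 and Hsd17b13 are next to each other on chromosome 5, and both encode proteins of the lipid droplet surface. The human counterpart of Hsd17b13 has inherited variants linked to chronic liver disease. Hsd17b13 had 10.04 and 9.88 in MCD diet livers and 9.87 and 9.78 in ND livers. It was the member with a higher mean in MCD diet livers, with a difference of 0.14 ± 0.13, or 1.10-fold. Hsd17b11 had 7.63 and 7.69 in MCD diet livers and 7.76 and 7.84 in ND livers, a difference of -0.14 ± 0.12. For both, the groups lay closer together than the arrays of at least 1 of the diets, and neither was called. Of the 15 nearest measured genes around them that are not members, limma called 0 lower and 2 higher, Ptpn13 and Sparcl1. The genes nearest in profile to Hsd17b13 were Gnai3, Atp6v0b and Klrk1, at distances under 0.01, as is possible for any gene that barely varies.

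**Figure D3:**
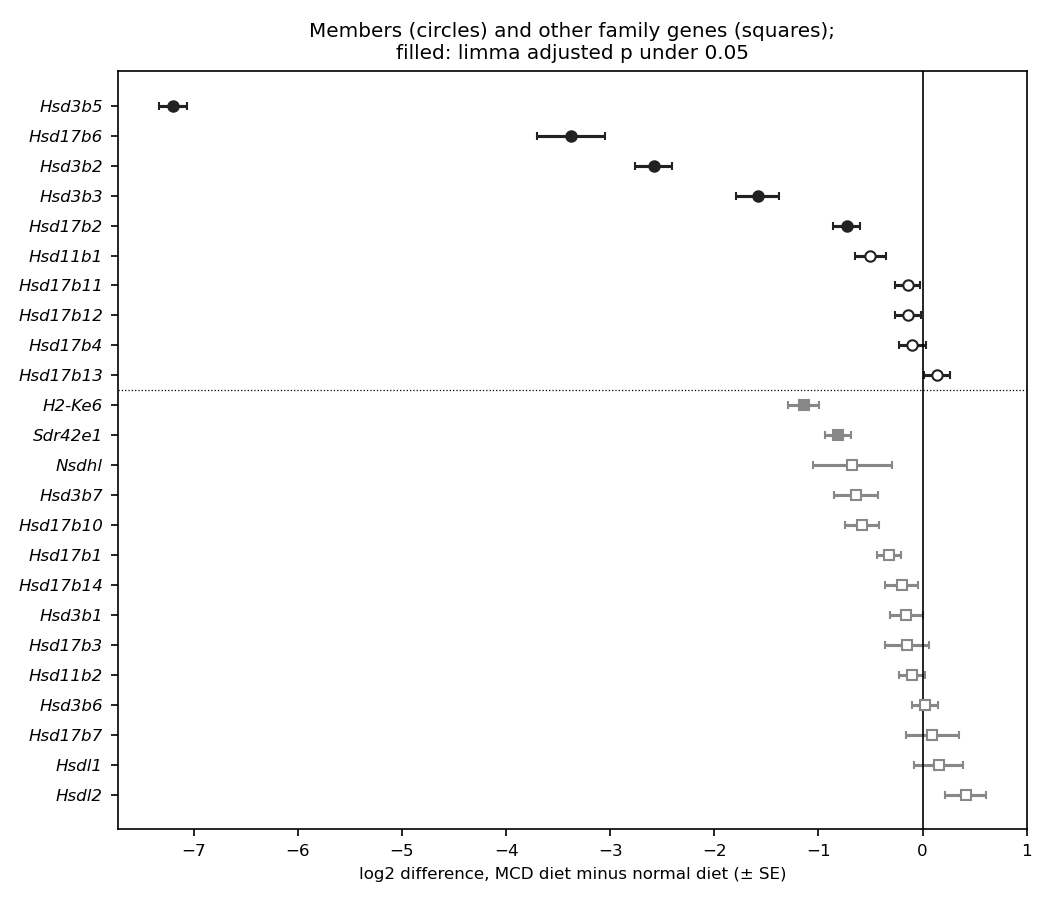
Log2 difference between MCD diet and normal diet livers (horizontal axis, ± SE) for the 10 members (black circles) and 14 other genes (grey squares). The 14 are genes of the family other than the aldo-keto reductases, and each set is sorted by difference. Filled symbols passed limma's adjusted p of 0.05. The members run between -7.20 for Hsd3b5 and 0.14 for Hsd17b13, and the other genes between -1.14 for H2-Ke6 and 0.41 for Hsdl2.

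Other genes of the family, apart from the aldo-keto reductases given below, were tested as genes that are not members. The lists were drawn up with earlier results of these data known. Of 14 measured, 2 fell, 0 rose and 12 did not pass, with a median difference of -0.18. H2-Ke6, also called Hsd17b8, takes part in mitochondrial fatty acid synthesis. It had 6.01 and 5.68 in MCD diet livers and 6.98 and 7.004 in ND livers, and fell by 1.14 ± 0.15 (limma adjusted p = 0.00821). Sdr42e1 fell by 0.81 ± 0.12 (adjusted p = 0.0135), a call that was lost without either MCD diet array (adjusted p = 0.0586 and 0.0586) and without ND replicate 2 (adjusted p = 0.0741). Hsd3b7, which acts on sterol precursors in bile acid synthesis, differed by -0.64 ± 0.21 (adjusted p = 0.124). Hsd17b10, a mitochondrial enzyme of isoleucine breakdown and RNA processing, differed by -0.58 ± 0.16 (adjusted p = 0.0831). Hsd17b7, which serves cholesterol synthesis, differed by 0.09 ± 0.26 (adjusted p = 0.877), with a difference that turned to -0.29 without ND replicate 2.

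Genes that act before, after or beside the members were arranged in 9 lists, the family list included. They held 154 measured genes, of which limma called 50, with 19 higher and 31 lower. This is 32.5%, against 9.98% of all genes, and as the lists were chosen with earlier results known, the share is given as a description.

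**Figure D4:**
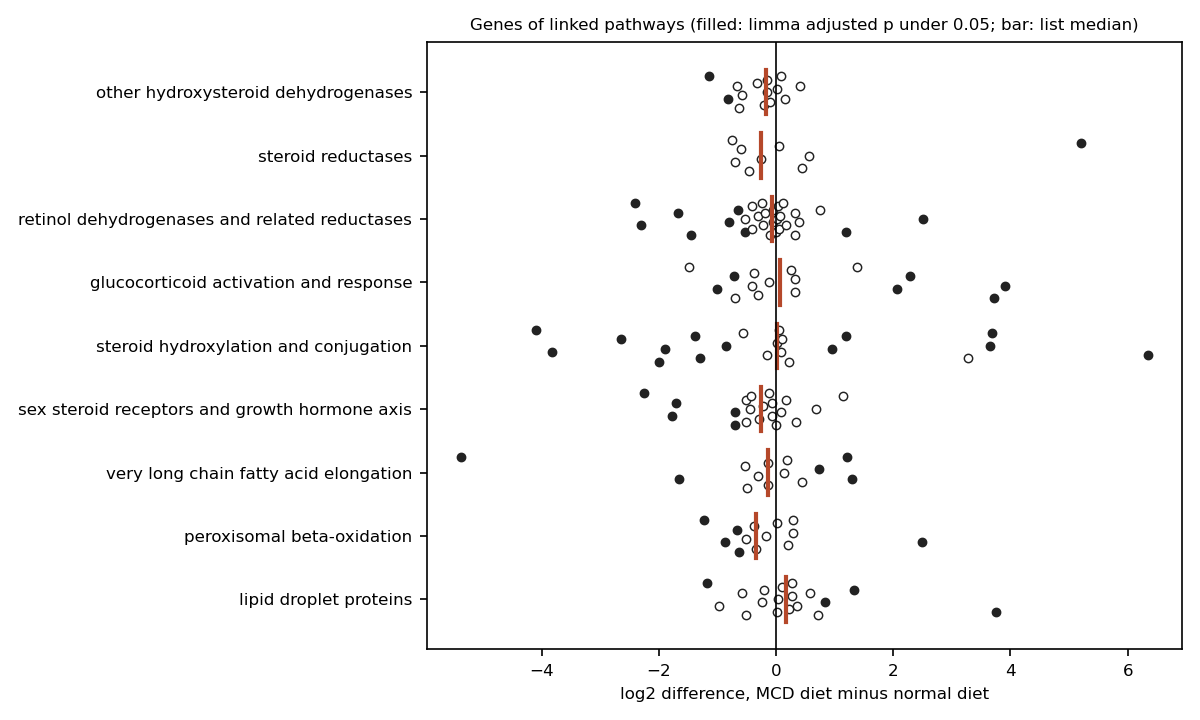
Log2 difference between MCD diet and normal diet livers (horizontal axis) for each gene of the 9 linked lists (rows); filled points passed limma's adjusted p of 0.05 and red bars mark list medians. The medians lie between -0.34 (peroxisomal beta-oxidation) and 0.16 (lipid droplet proteins), while single genes reach 6.34 (Sult1e1, from a dim ND signal) and -5.37 (Elovl3).

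Steroid reductases of the aldo-keto family share substrates with the members. Of 9 measured, 1 rose, 0 fell and 8 did not pass, with a median of -0.25. The gene that rose was Akr1c18, which inactivates progesterone by reducing its side chain. It had 7.36 and 6.71 in MCD diet livers and 1.61 and 2.07 in ND livers. All MCD diet values lay far above all ND values, and the rise of 5.20 ± 0.26 (36.6-fold, limma adjusted p = 0.000399) started at a dim signal, so its size is uncertain. Akr1c6, the aldo-keto reductase that makes testosterone in mouse liver, differed by -0.25 ± 0.23 (adjusted p = 0.586). Akr1d1, which reduces the double bond of steroid hormones and bile acid precursors, differed by -0.70 ± 0.20 (adjusted p = 0.0915) and passed without MCD replicate 2 (adjusted p = 0.0376). The list had 4 called genes without that array, 2 without MCD replicate 1 and 2 under quantile normalization.

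Genes of steroid hydroxylation and conjugation, which mark steroids for excretion, went both ways. Of 21 measured, 5 rose, 8 fell and 8 did not pass, with a median of 0.02. Sult1e1, which sulfates estrogens, had 8.05 and 8.57 in MCD diet livers and 2.03 and 1.91 in ND livers (a rise of 6.34 ± 0.19, limma adjusted p = 0.000165). Both ND values of Sult1e1 lay below their array medians, so the size of its rise is uncertain. Cyp2a4, a steroid hydroxylase that is higher in female mouse liver, rose by 3.68 ± 0.17 (adjusted p = 0.000349). Cyp7b1, the oxysterol and steroid hydroxylase that is higher in males, fell by 4.09 ± 0.18 (adjusted p = 0.000349), and Sult2a8 fell by 3.82 ± 0.32 (adjusted p = 0.00195).

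Sex steroid receptors and the growth hormone axis gave 0 higher, 5 lower and 15 not passing of 20 measured, with a median of -0.25. The growth hormone receptor Ghr had 6.25 and 6.90 in MCD diet livers and 8.37 and 8.17 in ND livers, and fell by 1.70 ± 0.23 (limma adjusted p = 0.00835). Igfals, which stabilises circulating IGF1, fell by 2.25 ± 0.29 (adjusted p = 0.00796), and Onecut1 fell by 1.78 ± 0.20 (adjusted p = 0.00449). The list had 3 called genes without ND replicate 1. Igf1 fell by 0.70 ± 0.13 (adjusted p = 0.0271), a call lost without any 1 of the arrays (adjusted p between 0.0527 and 0.128) and under quantile normalization (adjusted p = 0.0547). Stat5b, the growth hormone signal carrier in male liver, differed by -0.22 ± 0.22 (adjusted p = 0.609), the repressor Bcl6 by -0.51 ± 0.45 (adjusted p = 0.568) and the estrogen receptor Esr1 by -0.07 ± 0.13 (adjusted p = 0.798).

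Retinol dehydrogenases and related reductases, the relatives of Hsd17b6 and Hsd17b11, gave 2 higher, 7 lower and 21 not passing of 30, with a median of -0.07. Bdh2, a cytosolic dehydrogenase, fell by 2.41 ± 0.16 (limma adjusted p = 0.000951), and Pecr, a peroxisomal enoyl reductase, fell by 1.67 ± 0.21 (adjusted p = 0.00704). Dhrs9 rose by 2.51 ± 0.53 (adjusted p = 0.0369), with arrays more than 1 apart within each diet, and its call was lost without MCD replicate 1 or ND replicate 2. Without ND replicate 2, 5 genes of the list were called.

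Of 16 genes of glucocorticoid activation and response 4 rose, 2 fell and 10 did not pass, with a median of 0.07. The risers were Lcn2 (3.91 ± 0.22, limma adjusted p = 0.00064), the metallothioneins Mt2 (3.71 ± 0.65, adjusted p = 0.0209) and Mt1 (2.06 ± 0.35, adjusted p = 0.0199), and the cell cycle inhibitor Cdkn1a (2.28 ± 0.37, adjusted p = 0.0159). All of them also respond to inflammation, metals or cell damage. The ND arrays were far apart for both metallothioneins, and the difference was 2.60 without ND replicate 1 and 4.83 without ND replicate 2 for Mt2, and 1.48 and 2.64 for Mt1. The calls of Mt1 and Mt2 were lost without either MCD diet array and that of Cdkn1a without ND replicate 1. The genes that fell were Serpina6, the plasma carrier of corticosterone (by 1.01 ± 0.12, adjusted p = 0.00579), and Tsc22d3, a direct glucocorticoid target (by 0.72 ± 0.12, adjusted p = 0.016).

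The fatty acid pathways of the level members did contain genes that changed. In very long chain fatty acid elongation, the pathway of Hsd17b12, 3 of 13 rose and 2 fell. The median was -0.14. The elongases Elovl3 and Elovl2 fell by 5.37 ± 0.21 (limma adjusted p = 0.000283) and 1.66 ± 0.25 (adjusted p = 0.012), and the dehydratase Hacd4 and the elongase Elovl7 rose by 1.30 ± 0.15 (adjusted p = 0.0056) and 1.22 ± 0.25 (adjusted p = 0.0338). The call of Elovl2 was lost without ND replicate 1, and that of Elovl7 without either MCD diet array, without ND replicate 2 and under quantile normalization. Without MCD replicate 1 or ND replicate 2, 3 genes of the list were called. In the list for peroxisomal beta-oxidation, the pathway of Hsd17b4, 1 of 13 rose and 4 fell, with a median of -0.34. The transporter Abcd2 rose by 2.49 ± 0.42 (adjusted p = 0.0187). Phyh, which is on the list but starts the breakdown of phytanic acid ahead of beta-oxidation, fell by 1.23 ± 0.15 (adjusted p = 0.00681). The thiolase Scp2 fell by 0.88 ± 0.16 (adjusted p = 0.0249) and the racemase Amacr by 0.67 ± 0.13 (adjusted p = 0.0263). The list's calls numbered 1 to 3 with any 1 array left out.

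Lipid droplet proteins, the company of Hsd17b11 and Hsd17b13, gave 3 higher, 1 lower and 14 not passing of 18, with a median of 0.16. Cidec, which fuses droplets, had 7.51 and 8.10 in MCD diet livers and 3.57 and 4.54 in ND livers (a rise of 3.75 ± 0.35, limma adjusted p = 0.00274). The coat proteins Plin4 and Plin2 rose by 1.34 ± 0.24 (adjusted p = 0.0221) and 0.83 ± 0.16 (adjusted p = 0.0294), and Mettl7a1 fell by 1.18 ± 0.14 (adjusted p = 0.00549). The call of Plin2 was lost without any 1 of the arrays and that of Plin4 without either MCD diet array, and the list had 2 called genes without MCD replicate 1. Whether any of these genes changed by more than Hsd17b13 was not tested.

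Transcripts of steroid-making glands were checked, since adrenal tissue also expresses members of the Hsd3b group. Of 8 measured markers 0 rose and 1 fell, Cyp21a1 (by 1.07 ± 0.12, limma adjusted p = 0.0052), with 1.90 and 1.94 in MCD diet livers against 3.05 and 2.92 in ND livers. The linear signals of the 8 markers summed to 193 and 265 in MCD diet livers and 214 and 192 in ND livers. Most of each sum came from Mrap, with log2 signals of 7.36 and 7.87 in MCD diet livers and 7.47 and 7.27 in ND livers, while the other 7 lay between 1.56 and 3.05 on every array. Cyp11a1, which starts steroid synthesis in those glands, had 2.22 and 2.28 in MCD diet livers and 2.41 and 2.65 in ND livers, close to the array medians.

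Stellate and endothelial markers gave 2 higher and 2 lower of 11 (1 to 2 called without MCD replicate 2 or either ND array), with summed linear signals of 765 and 813 in MCD diet livers and 805 and 710 in ND livers.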

How the data were processed

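Log2 signals of 4 gene-level arrays of mouse liver RNA, 2 per diet, were analysed. The authors made the deposited log2 values in the Transcriptome Analysis Console that the submitters' processing notes name. Its version and settings are not given in those sources, and log2 was inferred from the values. The table holds 34472 rows, of which 23521 name exactly 1 gene; 1814 name several and 9137 none, and these were not tested. For the 1082 genes with several rows the row with the highest mean was used, which left 22180 genes. RefSeq (GRCm38.p6) found 23328 of the 23521 rows, served for names and gene order, and updated 0 symbols. All 4 value columns were used, leaving 0 unused.

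Groups came from the sample titles. Diets were compared with limma 3.58.1 in R 4.3.3 on all 4 arrays, two-sided, with Benjamini-Hochberg adjustment over all genes and a threshold of 0.05. Moderation raised the 2 residual degrees of freedom to 6.06. The fit was tested on simulated data. The members and lists were chosen with earlier results of these data known.

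Named genes were the members, a fixed set of always-named genes (2 not analysed here), up to 4 called genes with the largest differences per list, and the 3 genes nearest in profile to the members at each extreme. Others, such as the neighbours on the chromosome and the remaining copies, were chosen after their values were seen. Promoter windows were aligned locally with scores of 2 for a match, -2 for a mismatch and -5 and -1 for opening and extending a gap.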

Additional observations from a re-analysis of the deposited data

How the results depend on the processing

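The 13 alternatives were quantile normalization, median centring, filters that drop the dimmest 25% or 50% of genes, a variance trend on intensity, averaging rows, testing all rows, a rule of unadjusted p under 0.05 plus 2-fold difference, the replicate number as a block and each array left out. Of the members, 8 kept direction and call under all 13; Hsd17b2 lost its call under 4 of them, including the 2-fold rule (-0.73), and Hsd17b4 turned to 0.0791 under quantile normalization and ran between -0.1967 and 0.0011 with 1 array left out (0.0011 without ND replicate 2). Calls among members numbered 4 to 5, and among linked genes 36 to 42 without 1 array, against 50. For genes called across the table the count was 2214; 1155 passed the 2-fold rule and 1050 to 1493 without 1 array, where fewer samples entered. Of the calls 63.8% were higher in MCD diet livers, against 55.5% under quantile normalization and 54.0% with median centring. The replicate block gave 1950 calls and changed no member's call; same-numbered arrays deviated together only weakly (r = 0.05 across genes), so the numbers were not taken to pair the samples. Genes that were not called and changed sign were Hsd3b6 (-0.0464 with median centring, -0.0525 to 0.0919 with 1 array left out), Alb (0.0685 under quantile normalization) and, with 1 array left out, Hsd17b7 (-0.2903 to 0.4764), Esr1 (-0.1515 to 0.0105), Stat5b (-0.4869 to 0.0488), Bcl6 (-1.2279 to 0.2065) and Akr1c6 (-0.581 to 0.0822); the cause was not tested. With 2 arrays per diet no difference under 0.50 was called.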

Other observations

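The ND arrays differed from each other by at least 1 on the log2 scale in 11 of the 203 listed genes that were measured, against 0.555% of all genes. These genes, chosen after their values were seen, include Fkbp5, Zbtb16, Mt1 and Mt2 of the glucocorticoid list. The other genes of that list differed by less than 1 between the ND arrays. Such gaps were not particular to the ND arrays: the MCD diet arrays differed by at least 1 in 0.586% of all genes. On the glucocorticoid list, Pck1 (10.05 and 8.85) and Cdkn1a (6.79 and 5.62) did so between the MCD diet arrays. The cause of these gaps was not tested. Fkbp5, a chaperone induced by glucocorticoids, had 5.89 and 5.64 in MCD diet livers, against 4.31 on ND replicate 1 and 6.54 on ND replicate 2. Zbtb16 had 6.59 and 6.50 in MCD diet livers, against 5.39 and 7.05 in ND livers. For both, the MCD diet arrays lay between the ND arrays. Mt1 had 9.50 and 9.34 in MCD diet livers, against 6.78 and 7.94 in ND livers, and Mt2 had 9.83 and 9.82 in MCD diet livers, against 5.0 and 7.23 in ND livers. For both metallothioneins the MCD diet arrays lay above both ND arrays. Cyp17a1 had 5.04 and 6.92 on the ND arrays and Bcl6 had 4.51 and 5.94. Fkbp5, Zbtb16, Mt1, Mt2, Cyp17a1 and Bcl6 were all higher on ND replicate 2. G0s2 (5.56 and 6.92) and Sult2a3 (1.86 and 2.96) were also higher there, but for Sult2a3 the MCD diet arrays were farther apart (4.42 and 6.96). Nsdhl, Rdh11 and Dhrs9 went the other way. The sterol synthesis enzyme Nsdhl had 9.14 and 7.99 on the ND arrays, Rdh11 had 6.86 and 5.59, and Dhrs9 had 3.46 and 2.07. Among the other genes of the glucocorticoid list, Tsc22d3 had 5.29 and 5.33 on the ND arrays, Per1 6.52 and 6.61, and Tat 11.49 and 11.40. Lcn2 was higher on ND replicate 2 (5.69 and 6.36) and Sgk1 on ND replicate 1 (5.39 and 4.87). Hsd17b6 was higher on ND replicate 1 as well, at 9.43 against 8.37, whereas Hsd11b1 differed by 0.08 between the ND arrays.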
